A study of Mus musculus with 2 samples.

Results

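Cluster 6 is one of the 12 clusters that the authors numbered in single-cell RNA sequencing of mouse natural killer (NK) cells. Its members were the barcodes that carry this cluster number in the deposited matrix and a hashtag of 1 population, which gave 412 cells of 7479 singlets. The other 7067 singlets are called the rest here. The cells came from C57BL/6 mice of 12 weeks. Mice were injected under the skin with MC38 cells, a mouse colon carcinoma line. Mice received a cyclic fasting diet or were fed ad libitum, and hashtags marked fasted, refed and ad libitum populations from tumour, bone marrow and spleen, and a naive spleen population. The labels do not define naive, so it is not known here whether that population came from injected mice. They also do not state how many mice stand behind a hashtag. All cells passed the same gate, Lineage- NK1.1+ CD49b+, and 10 populations shared 1 droplet lane. Tumours were digested with enzymes, while bone marrow was flushed and spleen was strained. Each population is 1 sample, so no p-value is given for any comparison, and intervals cover counting error only.

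NK cells are innate lymphocytes that kill infected and transformed cells with granzymes and perforin. They arise in bone marrow, where CD27-bearing immature cells divide, and mature into circulating cells with KLRG1, LY6C and CX3CR1. In droplet data, the number of transcripts per cell (unique molecular identifiers, UMIs) and the share that comes from the mitochondrial genome are customary signs of RNA quality.

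Cluster 6 stood apart first by its mitochondrial share and not by depth alone. Its cells had a median of 2205 UMIs (quartiles 1480 and 3738) and 1043 detected genes, while the rest had 4509 UMIs and 1645 genes. The 13 mitochondrially encoded mRNAs held a median of 13.5% of the UMIs of a cluster 6 cell (quartiles 10.1% and 16.4%), against 2.78% in the rest. Cytosolic ribosomal protein mRNAs held a median of 12.0% in cluster 6 and 23.1% in the rest. Cluster 9 was shallower, with a median of 1399 UMIs, but its mitochondrial share was 7.92%. The name of a lower-depth cluster therefore fits cluster 6, with cluster 9 below it and cluster 7 next above it at 2710 UMIs. No cell in the matrix exceeded a mitochondrial share of 20% or had fewer than 683 UMIs. Of the 447 singlets with a share above 10%, 315 were in cluster 6, which is 70.5%. Within cluster 6, shares reached down to 5.15% and UMIs up to 19906.

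**Figure D1:**
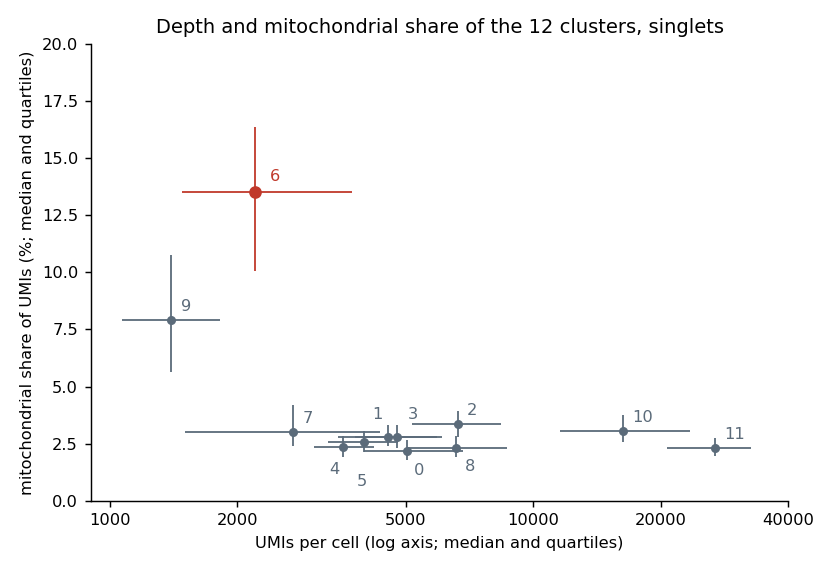
Median UMIs per cell (log axis) and median mitochondrial share of UMIs for the singlets of each cluster, with quartiles as bars and the cluster number beside each point. Cluster 6, in red, sits at 2205 UMIs and 13.5%, and cluster 9 is the nearest to it at 1399 UMIs and 7.92%.

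The pattern recurred in every population with cells to compare. The median UMIs of cluster 6 were 0.302 times those of the rest in refed bone marrow and 0.469 times in fasted spleen, the extremes among the 5 populations with at least 30 cluster 6 cells. The median mitochondrial share in cluster 6 was 15.4% in refed bone marrow, 14.8% in ad libitum bone marrow, 11.1% in fasted spleen, 13.8% in refed spleen and 13.1% in ad libitum spleen. In the rest of the same populations it was 3.52%, 3.24%, 2.83%, 2.92% and 2.54%. Cluster 6 keeps its number here and is given no cell type name.

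Cells of cluster 6 were most frequent in bone marrow. It held 15.4% of fasted (exact Clopper-Pearson 95% interval 9.82% to 22.6%), 16.6% of refed (12.8% to 21.0%) and 17.0% of ad libitum (14.1% to 20.4%) bone marrow cells. In spleen it held 3.95% of fasted (2.99% to 5.12%), 3.93% of refed (3.0% to 5.05%), 4.10% of ad libitum (3.23% to 5.12%) and 3.18% of naive cells (2.09% to 4.62%). Tumour cells were few, with 22 of 801 fasted, 1 of 95 refed and 1 of 46 ad libitum cells in the cluster. The intervals of all diets overlapped within each tissue, while those of bone marrow and spleen did not overlap. Pooled by tissue, 175 of the 412 cells were from bone marrow, 213 from spleen and 24 from tumour.

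**Figure D2:**
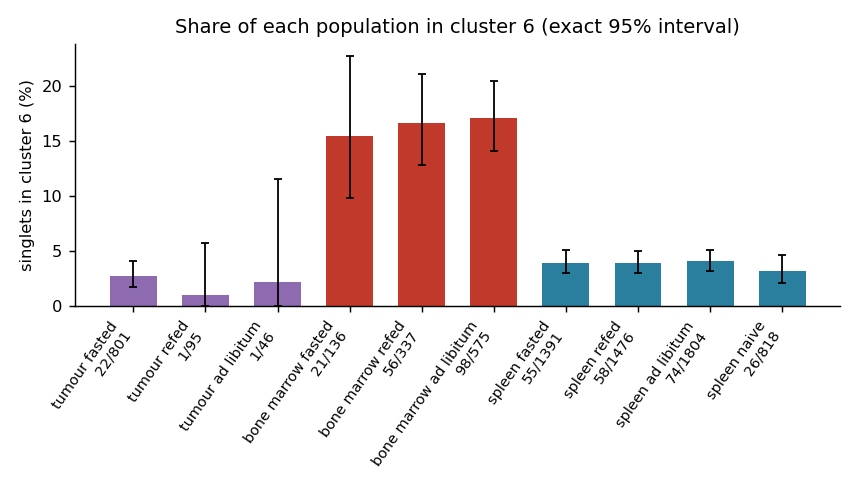
Share of the singlets of each population that fell in cluster 6, with exact 95% intervals of counting error and the counts below each bar. The 3 bone marrow populations lie between 15.4% and 17.0%, and the other 7 populations at 4.10% or less.

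The hashtags that assign cells to the 5 populations used for comparisons within the cluster are shown because every population label rests on them. They are the deposited barcode sequences, in lower case.
bone marrow refed: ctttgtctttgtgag
bone marrow ad libitum: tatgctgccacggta
spleen fasted: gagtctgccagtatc
spleen refed: tatagaacgccaggc
spleen ad libitum: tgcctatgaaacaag

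A hashtag cannot reveal a droplet that held several cells of the same population. Of the 789 classified barcodes of cluster 6, 377 were called Doublet, a share of 47.8% (44.2% to 51.3%). The share was 42.5% over the other clusters, with a range over single clusters of 22.6% to 80.3%. The excluded barcodes of cluster 6 had a median of 2397 UMIs and a mitochondrial share of 13.1%, close to the 2205 UMIs and 13.5% of the singlets. No doublet caller was run on the expression data.

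Set against the rest, cluster 6 combined high mitochondrial and cell division transcripts with low ribosomal protein, nuclear oxidative phosphorylation and actin cytoskeleton transcripts. Levels are UMIs summed over cells and scaled to a common total (CPM), and ratios are log2 of CPM + 5. The clusters were drawn from the expression of these same cells, so all differences between cluster 6 and other clusters are descriptions. Of 6152 genes at 20 CPM or more on either side, 2019 (32.8%) were higher and 760 (12.4%) lower by a log2 ratio of 0.5 or more. The median over all these genes was 0.22. With TMM scaling, which moved ratios by -0.39 and put that median at -0.18, 777 genes were higher and 1824 lower. Calls in the higher direction thus made up 72.7% as reported and 29.9% with TMM scaling. List medians below are without TMM scaling unless stated, and this scaling would lower each of them by a like amount. Just inside the threshold lay Appbp2, at 33.6 CPM in cluster 6 and 22.3 CPM in the rest, and Cdc42ep3, at 64.8 and 93.8 CPM. Just outside it lay Sugp1, at 24.8 and 16.1 CPM, and Timm8b, at 54.4 and 79.0 CPM.

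Within single populations the share of genes past the same fold was larger. In refed bone marrow 38.2% of the tested genes were higher and 20.4% lower, and in ad libitum bone marrow 39.1% and 16.2%. In spleen the shares were 37% and 21.7% for fasted, 37.9% and 20.2% for refed, and 35.6% and 18.2% for ad libitum cells. Ratios above 0 in all 5 populations were found for 24% of the genes tested on the pooled cells, and ratios below 0 in all 5 for 14.8%. A list whose members pass the fold about as often does not stand out from all genes.

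All 13 mitochondrially encoded mRNAs, which code for respiratory chain and ATP synthase subunits, were higher, with a median log2 ratio of 2.01. mt-Atp6, an ATP synthase subunit, had 28821 CPM in cluster 6 and 6121 CPM in the rest. mt-Co3, a cytochrome oxidase subunit, had 22980 and 4921 CPM. Summed, the mitochondrial mRNAs lay between 118254 and 141182 CPM in cluster 6 over the 5 populations, against 27501 to 36010 CPM in the rest, so the ranges did not overlap.

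The nuclear genes of the same respiratory machinery went the other way. None of 33 measured nuclear oxidative phosphorylation genes was higher and 28 were lower, with a median of -0.72. Atp5e, an ATP synthase subunit, had 438 CPM in cluster 6 and 991 CPM in the rest. Summed, these genes reached 8204 to 9315 CPM in cluster 6 and 13231 to 16288 CPM in the rest across the 5 populations. Cytosolic ribosomal protein genes behaved alike, with 0 of 84 higher, 81 lower and a median of -0.86. The largest drop among them was in Rpl35, at 209 against 531 CPM, and the smallest in Rps2, at 2389 against 2887 CPM.

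Genes of the actin cytoskeleton were also low, 11 of 18 lower and 0 higher, with a median of -0.67. Tmsb4x, which encodes the actin-sequestering peptide thymosin beta 4, had 7815 CPM in cluster 6 and 21121 CPM in the rest, a log2 ratio of -1.43 (interval -1.46 to -1.40). Tmsb4x lay between 7313 and 9738 CPM in cluster 6 and between 18142 and 25489 CPM in the rest over the 5 populations. Pfn1 (profilin) had 1386 and 2561 CPM, and Lcp1, an actin-bundling protein, had 609 and 437 CPM, higher in cluster 6 in each population. S100 proteins, annexins and galectins were lower in 10 of 12 cases, with S100a10 at 698 CPM in cluster 6 and 1480 CPM in the rest.

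Cell division genes led the ranking of nuclear genes. The 15 highest named genes included Mki67 (the Ki-67 antigen), Cenpf and Hjurp (centromere proteins), Top2a (topoisomerase II alpha), Kif15 and Kif23 (kinesins), Prc1 (spindle midzone), Ncapg2 and Ncapd2 (condensin) and Ccnb1 (cyclin B1). Mki67, on chromosome 7 (mm10, chr7:135689784-135716361, minus strand, GENCODE M21), had 664 CPM in cluster 6 and 83.8 CPM in the rest, a log2 ratio of 2.91 (2.80 to 3.02). Its 830 UMIs came from 120 cells, with 3.49% from the highest cell.

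By population, Mki67 was at 882 CPM in refed and 1175 CPM in ad libitum bone marrow of cluster 6, and at 64.7, 168 and 374 CPM in fasted, refed and ad libitum spleen. In the rest of the same populations it was at 240, 294, 15.8, 43.0 and 45.9 CPM. Top2a was at 1092, 1320, 129, 496 and 754 CPM in cluster 6, against 432, 478, 43.3, 95.6 and 96.4 CPM. Both genes were higher in cluster 6 in each of the 5 populations, and both were highest in bone marrow.

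The list of 13 dividing-cell genes had 12 higher and 0 lower, with a median of 1.07. Within refed and ad libitum bone marrow its median was 0.04 and 0.16, and within spleen it lay between 1.06 and 1.65. Stmn1 (stathmin), a microtubule regulator, was at 448 CPM in cluster 6 and 677 CPM in the rest in refed bone marrow, but at 305 and 194 CPM in ad libitum spleen. Hmgb2, a chromatin protein, was at 2035 and 2391 CPM in ad libitum bone marrow and at 1764 and 889 CPM in ad libitum spleen. Pttg1 (securin), another gene of cell division, was among the 15 lowest named genes, at 24.0 CPM in cluster 6 and 56.5 CPM in the rest.

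To compare shares of cells at equal depth, each cell was thinned to 1500 UMIs, which left 305 of 412 cluster 6 cells and 6672 of 7067 cells of the rest. At that depth Mki67 was detected in 28.9% of cluster 6 cells (23.8% to 34.3%) and 3.6% of the rest. Outside cluster 6 the share was 32.1% in cluster 10, 7.8% in cluster 7 and between 1.3% and 3.57% in the other 9 clusters. Unthinned, the shares were 29.1% and 8.6%. Top2a was detected in 37.7% and 8.0%, and Cenpf in 19.0% and 1.8%.

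Cells with at least 3 UMIs of the dividing list made up 47.9% of cluster 6 (42.1% to 53.6%) and 19.5% of the rest. Only cluster 10 had a higher share than cluster 6, at 73.4%, and its median depth was 16287 UMIs. Inside cluster 6 the share was 60.6% of bone marrow cells (52.5% to 68.4%), 35.3% of spleen cells (27.3% to 43.9%) and 28.6% of 14 tumour cells (8.39% to 58.1%). The shares of thinned cells in the rest were not split by tissue. Before thinning, bone marrow gave 175 of the 412 cells of cluster 6 but 1048 of all 7479 singlets. The part of tissue in the thinned shares was not tested. Cells of cluster 6 were also not poorer in genes at equal depth, with a median of 796 genes against 764.

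Chaperones of the endoplasmic reticulum, which fold secreted and membrane proteins, were high, with 18 of 21 higher and 0 lower and a median of 1.05. This list was drawn up after its values had been seen and supports nothing by itself. Hspa5 (BiP) had 1090 CPM in cluster 6 and 460 CPM in the rest. Hspa5 was at 1292 and 1311 CPM in refed and ad libitum bone marrow and at 628, 1012 and 850 CPM in fasted, refed and ad libitum spleen of cluster 6. In the rest it was at 391, 399, 305, 450 and 386 CPM, below every value in cluster 6. Pdia6, a protein disulfide isomerase, had 487 and 172 CPM, and Hsp90b1 (GRP94) had 1127 and 439 CPM.

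Receptors of adhesion and homing were high too, 14 of 18 higher and 2 lower, with a median of 0.87. Itgb1 (integrin beta 1) had 948 CPM in cluster 6 and 396 CPM in the rest. The chemokine receptor Cxcr3, at 158 and 47.4 CPM, was higher in each of the 5 populations. Of the sphingosine phosphate receptors that guide exit from tissue, S1pr1 was at 69.6 and 32.7 CPM and S1pr5 at 56.8 and 90.3 CPM. At 1500 UMIs, Itgb1 was detected in 69.8% of cluster 6 cells and 44.6% of the rest, and Cxcr3 in 19.7% and 6.7%. Cluster 9 was close to cluster 6, at 70.7% for Itgb1 and 15.7% for Cxcr3.

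NK cell genes were detected in cluster 6 at levels near or above those of the rest. Of 17 identity genes 7 were higher and 0 lower, with a median of 0.28 that becomes -0.10 with TMM scaling. Ncr1 (NKp46) had 1344 CPM in cluster 6 and 904 CPM in the rest, and Itga2 (CD49b, part of the sort gate) had 103 and 43.1 CPM. Ncr1 was detected in 83.6% of thinned cluster 6 cells and 72.2% of thinned cells of the rest. Nkg7 (a granule protein) had 3597 and 3318 CPM, and Tbx21, the transcription factor T-bet, had 89.6 and 109 CPM. Among the Ly49 and NKG2 receptors, which read MHC class I, 6 of 13 were higher and 0 lower, led by Klra6, Klra1 and Klra7. The Klra genes are a family of related sequences, so some reads may have been split between them.

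Immature NK genes were higher in 9 of 12 cases, with 0 lower and a median of 0.81. Emb (embigin) had 298 CPM in cluster 6 and 127 CPM in the rest, Thy1 had 341 and 153 CPM, and the TNF receptor family member Cd27 had 198 and 92.3 CPM. All 3 were higher in each of the 5 populations. Mature NK genes had 2 of 14 higher and 7 lower, with a pooled median of -0.36 that lay outside the range within populations, -0.14 to 0.46, and that was 0.020 with every barcode. Pooled over populations, their sums were close, at 15939 CPM in cluster 6 and 15874 CPM in the rest. Within bone marrow the mature list summed to 12633 against 5979 CPM in refed and 13121 against 8171 CPM in ad libitum cells. In spleen it was 21369 against 19752 CPM in fasted, 20319 against 18571 CPM in refed and 21102 against 21833 CPM in ad libitum cells. Of these genes, Ly6c2 was lower in each population and pooled at 234 against 476 CPM. Gzmb (granzyme B) was pooled at 682 and 1442 CPM, but within refed bone marrow it was at 338 CPM in cluster 6 and 310 CPM in the rest. Gzma (granzyme A), the most abundant granzyme, was at 12989 and 11743 CPM.

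Ccl5, a chemokine that circulating NK cells store, was at 6182 CPM in cluster 6 and 15577 CPM in the rest. By population it was at 4305 and 4457 CPM in refed and ad libitum bone marrow and at 9349, 8851 and 8931 CPM in fasted, refed and ad libitum spleen of cluster 6. In the rest it was at 7429, 8307, 25606, 17667 and 21634 CPM, higher than cluster 6 in each. Interferon-induced genes were lower in 12 of 18 cases with 0 higher, and their pooled median of -0.86 compared with medians of -0.80 to -0.01 within populations. Ifi27l2a, of this list, was the lowest named gene, at 17.6 and 82.7 CPM, and its cluster 6 level rested on 22 UMIs. It was at 14.8 and 167 CPM in ad libitum and 0 and 33.3 CPM in refed bone marrow. Spleen pairs were closer, at 9.24 and 12.4 CPM (fasted), 14.0 and 27.0 CPM (refed) and 26.7 and 30.2 CPM (ad libitum).

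The list of nuclear-retained and long non-coding RNAs had 4 of 7 higher and 0 lower, with a median of 0.59 that was -0.31 against cluster 9. Malat1, a long non-coding RNA that stays in the nucleus, had 34005 CPM in cluster 6 and 22539 CPM in the rest. Its median share of a cell's UMIs was 3.86% in cluster 6, below the 8.93% of cluster 9 and the 4.63% of cluster 4, and 2.59% in the rest. Xist, the non-coding RNA that coats the inactive X chromosome, had 448 and 110 CPM and was seen in 40.7% and 14.1% of thinned cells. In cluster 9 the share was 41.4%, and the log2 ratio of cluster 6 over cluster 9 was 0.18. Among the mRNAs of 20 chromatin regulators 16 were higher and 0 lower, with a median of 0.59, and the helicase Chd3 had 296 and 128 CPM. Splicing and RNA-binding genes had 9 of 20 higher and 0 lower, with a median of 0.46, where the median over all tested genes was 0.22.

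**Figure D3:**
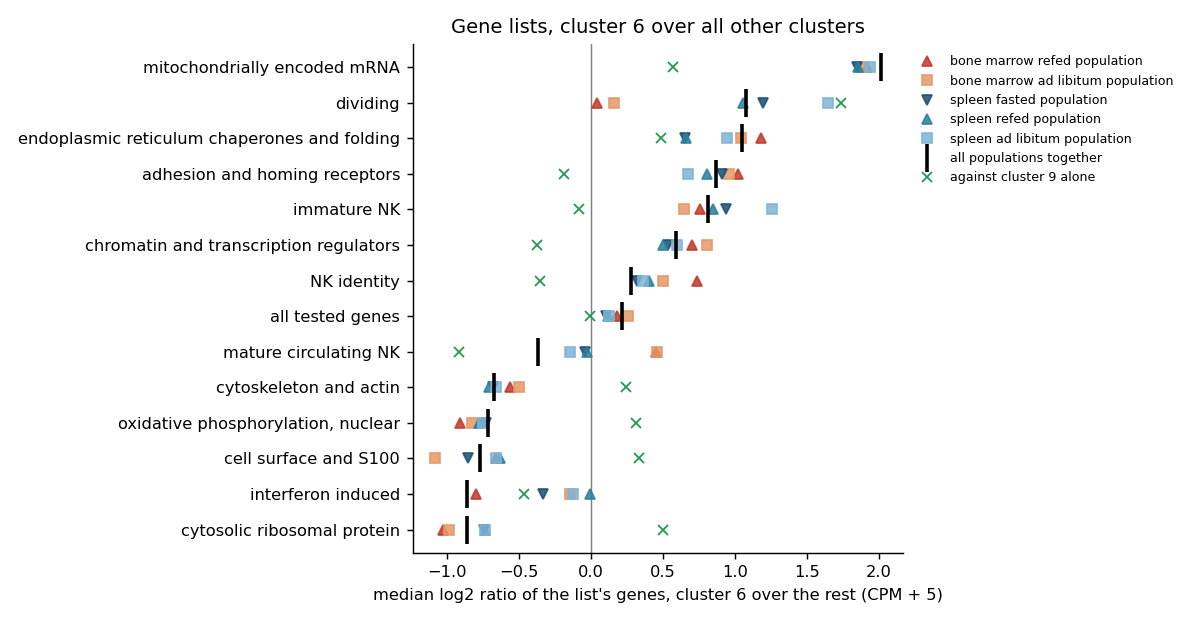
Median log2 ratio of CPM + 5 of the genes of each list, cluster 6 over the rest, for all populations together (black bar), within each of 5 populations (coloured markers) and over cluster 9 alone (green cross). Mitochondrial mRNAs lie highest and ribosomal protein genes lowest, and the crosses of the ribosomal, oxidative phosphorylation, actin and S100 lists lie on the other side of 0 from the bars.

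Over the whole table, ratios followed transcript length. Among 5927 genes other than mitochondrial and ribosomal protein genes, the median log2 ratio was -0.13, 0.0016, 0.16, 0.36 and 0.57 in 5 equal groups of increasing annotated length. The shortest group had a median length of 723 bases and 22.0% of its genes higher, and the longest group 4856 bases and 56.2% higher. Genes called higher had a median length of 2740 bases, those called lower 977 bases and all of them 1954.5 bases. Of the lists, chromatin regulators, with a median ratio of 0.59, had a median length of 4470 bases. The lower nuclear oxidative phosphorylation, S100 and actin lists had 568, 776 and 796 bases. Lists of short genes that were higher included mitochondrial mRNAs, at 784 bases, and immature NK genes, at 1248 bases. The dividing list had a median length of 1579 bases. Among the highest named division genes, Mki67 had 5318, Top2a 5221, Kif15 703 and Ncapg2 562 bases. Pttg1, among the lowest, had 700 bases. The part of length in the differences of lists and genes was not tested. Across genes Spearman's rho was 0.38, where genes are not independent replicates. It was 0.31 against cells of the rest within the same range of UMIs, and 0.23 to 0.40 within the 5 populations.

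**Figure D4:**
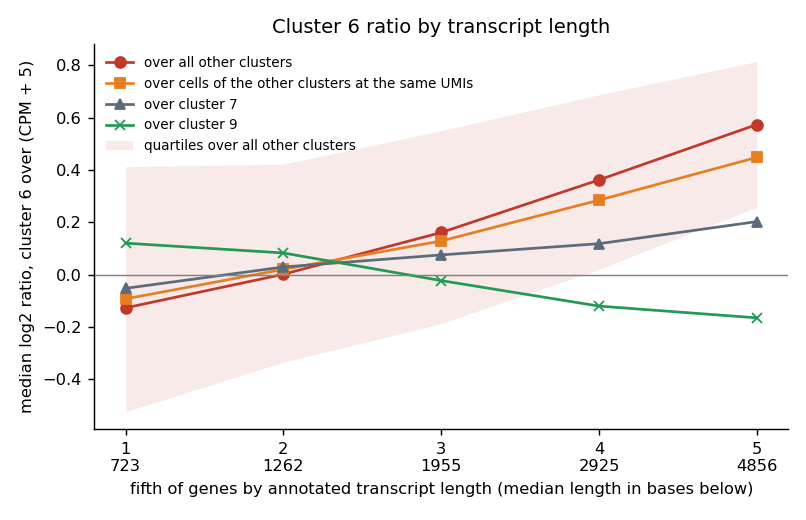
Median log2 ratio of CPM + 5 of cluster 6 over 4 sets of cells, in 5 equal groups of genes by annotated transcript length, with the shaded quartiles for all other clusters. The ratio climbs to 0.57 in the longest group against all other clusters, and it declines to -0.16 against cluster 9.

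The clusters most like cluster 6 by Spearman's rho over gene levels were cluster 7 (0.875), cluster 9 (0.863) and cluster 1 (0.851). Against cluster 9, the other cluster with few UMIs and a raised mitochondrial share, 1017 genes (15.7%) were higher and 1305 (20.1%) lower. Against cluster 7 20.8% of genes were higher and 11.3% lower, and against cluster 1 29.4% and 11.9%. Several lists changed side against cluster 9. The median was 0.50 for ribosomal protein genes, 0.32 for nuclear oxidative phosphorylation, 0.25 for actin, -0.19 for adhesion and -0.37 for chromatin. Mitochondrial mRNAs stayed higher in cluster 6, with a median of 0.57, and the dividing list reached 1.74. Mki67 had a log2 ratio of 3.60 over cluster 9 and 1.95 over cluster 7. Thinned, 47.9% of cluster 6 cells but 26.4% of 140 cluster 9 cells (19.3% to 34.5%) had 3 or more dividing UMIs. The length order was reversed against cluster 9, with a rho of -0.20, and weaker against cluster 7, at 0.15.

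Most cells on both sides held UMIs of genes listed as markers of other cell types. Fewer than 3 such UMIs, over 6 lists together, were found in 77 cluster 6 cells (18.7%) and in 1007 cells of the rest (14.2%). Cd4, Cd8b1, Ms4a1, Pax5, Jchain, Xcr1 and Cdh5 had 0 UMIs in cluster 6, but other members of the same lists were present. The T cell list summed to 822 CPM in cluster 6 and 807 CPM in the rest, and over the 5 populations to between 642 and 1096 CPM and between 640 and 1251 CPM. The dendritic cell list summed to 765 and 671 CPM, and over the 5 populations to between 512 and 695 CPM in cluster 6 and between 329 and 595 CPM in the rest. In fasted tumour it summed to 3579 CPM in cluster 6 (22 cells) and 1792 CPM in the rest. It was lower in cluster 6 in the refed and ad libitum tumour populations, which had 1 cell each. The tumour and stroma list summed to 98.4 and 44.5 CPM, and in fasted tumour cells to 843 CPM in cluster 6 and 88.7 CPM in the rest. The B and plasma cell list summed to 95.2 and 106 CPM, the erythroid list to 282 and 256 CPM, and the basophil and mast cell list to 26.4 and 16.8 CPM. The neutrophil list summed to 80.0 CPM in cluster 6 and 602 CPM in the rest. In the rest it was at 11762 CPM in fasted, 91.1 CPM in refed and 2890 CPM in ad libitum bone marrow. In the same populations of cluster 6 the list was at 247 (21 cells), 62.0 and 69.0 CPM. In spleen it was higher in cluster 6, at 102 CPM against 47.9 CPM in fasted, 69.8 against 41.9 CPM in refed and 80.2 against 35.6 CPM in ad libitum cells. The monocyte and macrophage list summed to 1119 CPM in cluster 6 and 740 CPM in the rest, with Ccr2, which NK cells also express, at 644 CPM and Lyz2 at 274 CPM. Of the Lyz2 UMIs in cluster 6, 86.8% came from 1 cell. Over the 5 populations the list's sum lay between 510 and 952 CPM in cluster 6 and between 304 and 1698 CPM in the rest. In ad libitum bone marrow it was lower in cluster 6, at 695 against 1698 CPM. In populations with fewer cells, it was at 7239 against 853 CPM in fasted bone marrow and 2464 against 1590 CPM in fasted tumour. Naive spleen was at 1022 against 342 CPM. Their cluster 6 values rested on 21, 22 and 26 cells. Cells with at least 3 UMIs of the list made up 33.0% of cluster 6 and 26.9% of the rest, and 0.971% and 1.09% for neutrophils and 21.8% and 29.2% for dendritic cells. For T cell markers, of which Trbc1 and Trbc2 are also transcribed in NK cells, these shares were 29.4% and 51.8%. All shares of cells in this paragraph were counted without thinning, at a median of 2205 UMIs in cluster 6 and 4509 UMIs in the rest. A limit of 3 UMIs is reached less easily by shallow cells, so these shares are not compared at equal depth. The part of these markers in the differences above was not tested.

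Cluster 6 was not uniform. In 3 equal groups of increasing depth, bone marrow made up 22.5%, 43.8% and 61.3% of cells, and the dividing list summed to 1515, 2259 and 5825 CPM. The mitochondrial sum did not follow depth, at 132406, 140931 and 120784 CPM. In 3 equal groups of increasing mitochondrial share, the chaperone list summed to 5009, 7763 and 9479 CPM. Ribosomal protein mRNAs summed to 179619, 126506 and 122685 CPM, and actin genes to 31664, 20251 and 17528 CPM. In the group of cells with the lowest mitochondrial share, the ribosomal and actin medians against the rest were -0.58 and -0.27, and the chaperone median was 0.62. Tissue moved with both orders, since bone marrow made up 28.3%, 43.1% and 56.2% of the groups by mitochondrial share, and its part was not tested.

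Diet comparisons inside cluster 6 set 55 fasted, 58 refed and 74 ad libitum spleen cells and 56 refed and 98 ad libitum bone marrow cells side by side. The 3 spleen comparisons share populations. Fasted spleen cells of the cluster had fewer division transcripts than ad libitum cells. The dividing list summed to 1580 CPM in fasted and 3982 CPM in ad libitum spleen cells, a log2 ratio of -1.33 (-1.58 to -1.09), and in the rest the ratio was -0.54 (-0.59 to -0.50). Mki67 had 7 UMIs (64.7 CPM) in fasted and 70 UMIs (374 CPM) in ad libitum cells. Top2a had 14 UMIs (129 CPM) and 141 UMIs (754 CPM). Raw UMIs are not scaled, and the totals were 108242 UMIs in fasted and 187096 UMIs in ad libitum cells. Their median depths were 1653 and 1976 UMIs per cell. Of the 10 lowest named genes, Cit, Kif20b, Knl1, Gmnn, Kif11 and Cenpe act in cell division or replication control, and each had 0 UMIs in fasted cells against 26, 23, 22, 20, 17 and 15 UMIs in ad libitum cells. The ratio was -1.01 when every cell had the same weight and -1.05 when cells were thinned to 1000 UMIs. It was -0.55 over the 16 fasted and 18 ad libitum cells with fewer than 3 UMIs of other cell types' markers.

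The refed spleen cells lay between these values. Their dividing sum was 2499 CPM, with a log2 ratio of 0.66 (0.39 to 0.93) over fasted cells and -0.67 (-0.86 to -0.49) over ad libitum cells. The refed over fasted ratio was -0.55 among the 20 refed and 16 fasted cells with fewer than 3 UMIs of other cell types' markers. That limit was not scaled to depth, so shallow cells pass it more easily, and the dividing sum rose with depth within cluster 6. In the rest the refed ratios were 0.47 over fasted and -0.08 over ad libitum cells. Endoplasmic reticulum chaperones summed to 4139 CPM in fasted, 6436 CPM in refed and 5869 CPM in ad libitum cells. The fasted ratio over ad libitum was -0.50 (-0.66 to -0.34) in cluster 6 and -0.36 in the rest.

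Glucocorticoid targets, genes that the stress hormone receptor induces, summed to 1072 CPM in fasted and 903 CPM in ad libitum spleen cells of the cluster, a log2 ratio of 0.25 (-0.11 to 0.59). In the rest the ratio was 0.98 (0.93 to 1.02). The cluster 6 ratio was 0.74 when its cells were thinned to 1500 UMIs and 0.99 at 1000 UMIs. Pik3ip1, a brake on PI3 kinase, had 13 UMIs in fasted, 0 in refed and 6 in ad libitum cells, and its fasted over ad libitum ratio was 1.75 (0.38 to 3.16) in cluster 6 and 1.91 in the rest. Tsc22d3 (GILZ) had 139, 69.8 and 90.9 CPM in fasted, refed and ad libitum cells, from 15, 10 and 17 UMIs, and a fasted over ad libitum ratio of 0.58 (-0.47 to 1.62) against 1.33 in the rest. Txnip, a thioredoxin inhibitor, had 333, 209 and 214 CPM, and a ratio of 0.63 (-0.05 to 1.30) against 1.19 in the rest. Both intervals included 0.

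Among secreted proteins, the chemokine Ccl4 had 222 CPM in fasted, 1068 CPM in refed and 385 CPM in ad libitum spleen cells. Its refed over fasted ratio was 2.24 (1.63 to 2.91) in cluster 6 and 0.50 in the rest. Xcl1, a chemokine that attracts dendritic cells, had 231, 817 and 609 CPM in fasted, refed and ad libitum cells. Gzmb had 416, 1075 and 502 CPM, and Ccl5 had 9349, 8851 and 8931 CPM. Without the highest cell on each side, the refed over fasted ratio was 1.80 for Ccl4, 1.67 for Xcl1 and 1.00 for Gzmb. Other secreted proteins did not share these ratios, with Ccl3 at 0.04 (-0.38 to 0.46) and Ifng at 0.13 (-0.58 to 0.85) in refed over fasted cells. Without the highest cell on each side these were -1.12 and -0.12. Mgarp, the highest named gene of fasted over ad libitum cells, had 26 UMIs that all came from 1 fasted cell. The mitochondrial sum was at 118254 CPM in fasted, 120908 CPM in refed and 119115 CPM in ad libitum cells, a difference of -0.01 (-0.04 to 0.02) between fasted and ad libitum cells. The median share per cell differed more, at 11.1% in fasted, 13.8% in refed and 13.1% in ad libitum cells.

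**Figure D5:**
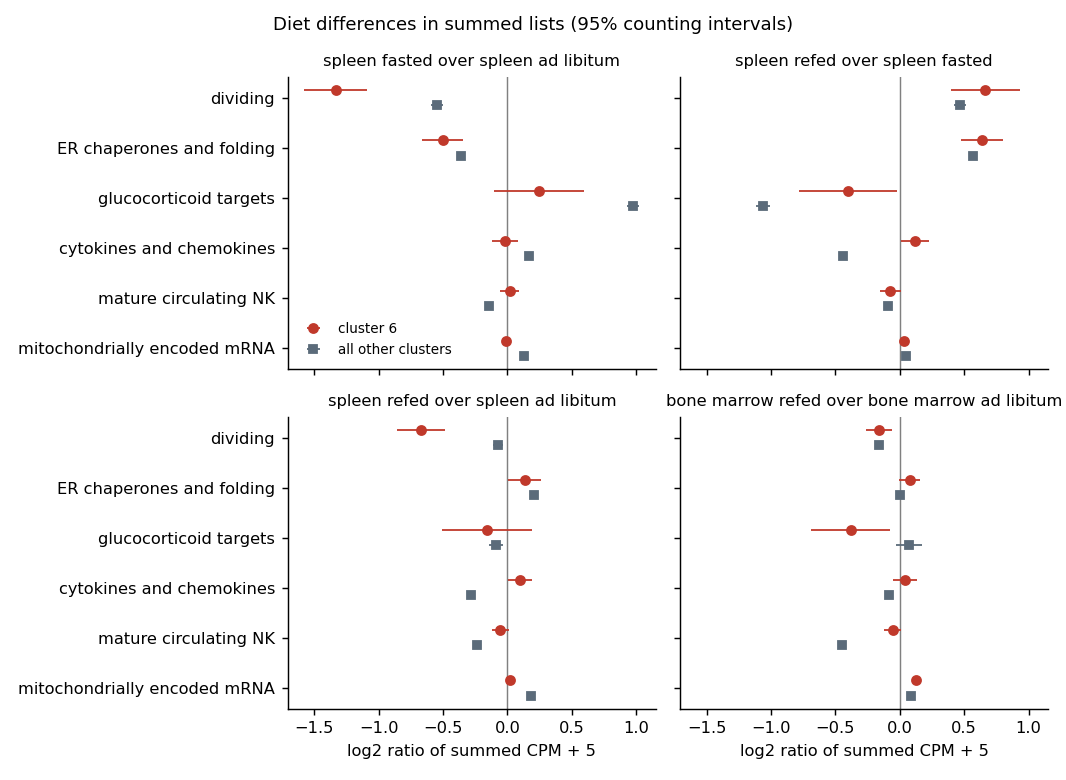
Log2 ratio of summed CPM + 5 of 6 lists in 4 diet comparisons, in cluster 6 (red circles) and in all other clusters (grey squares), with 95% counting intervals. Dividing genes are lower in fasted than in ad libitum spleen cells, by -1.33 in cluster 6 and -0.54 in the rest, and glucocorticoid targets lie at 0.25 and 0.98.

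In bone marrow, refed over ad libitum cells had a dividing ratio of -0.16 (-0.26 to -0.06) in cluster 6 and -0.17 in the rest. The immature list was higher in refed cells, at 5244 CPM against 3851 CPM, a ratio of 0.45 (0.33 to 0.56) in cluster 6 and 0.37 in the rest. After leaving out cells with markers of other types, 1 refed and 7 ad libitum cells remained, with dividing and glucocorticoid ratios of 2.50 and 0.71. Xcl1 had 1292 and 776 CPM, and Gzmb had 338 and 687 CPM. The mature list differed by -0.05 (-0.12 to 0.01) in cluster 6 and by -0.45 in the rest. Glucocorticoid targets differed by -0.38 (-0.69 to -0.08) in cluster 6 and by 0.07 (-0.03 to 0.17) in the rest. The highest named gene, Trim5, an antiviral factor, rested on 11 UMIs in refed and 2 in ad libitum cells.

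Between tissues, the mature and dividing lists differed in cluster 6 in the same direction as in the rest, with smaller ratios. Mature NK genes summed to 13121 CPM in bone marrow and 21102 CPM in spleen of ad libitum mice, a log2 ratio of -0.69 (-0.74 to -0.63), against -1.42 in the rest. In refed mice the ratio was -0.69 (-0.76 to -0.61) and -1.63 in the rest. Dividing genes had a bone marrow over spleen ratio of 0.64 (0.52 to 0.76) in ad libitum and 1.15 (0.98 to 1.33) in refed mice, against 1.79 and 1.70 in the rest. The immature list did not follow this pattern, with ratios of -0.13 (-0.25 to -0.0002) in cluster 6 and 0.22 in the rest in ad libitum mice, and of 0.17 (0.03 to 0.31) and 0.35 in refed mice. Klrg1, a receptor of mature cells, had 12 UMIs in bone marrow and 27 in spleen of ad libitum mice. Chaperones were higher in bone marrow, with ratios of 0.49 and 0.43 in ad libitum and refed mice, against 0.19 and -0.02 in the rest. Without the cells that held markers of other types, 7 bone marrow and 18 spleen cells were left in ad libitum mice, and their dividing ratio was -1.16.

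Some effector genes ran against the rest. In ad libitum mice Gzmb had 687 CPM in bone marrow and 502 CPM in spleen of cluster 6, a ratio of 0.45 (0.11 to 0.80), while the rest had 465 and 1189 CPM, a ratio of -1.35. Ccl4 had 714 and 385 CPM in cluster 6, a ratio of 0.88 (0.51 to 1.27), and 288 and 1004 CPM in the rest. Without the highest cell on each side the cluster 6 ratios were 0.41 for Gzmb and 0.50 for Ccl4. In refed mice both genes were lower in bone marrow, Gzmb by -1.65 in cluster 6 and -1.66 in the rest, and Ccl4 by -1.42 and -1.57. Cxcl10, an interferon-induced chemokine, had 65 UMIs in bone marrow and 2 in spleen of ad libitum mice in cluster 6, a ratio of 3.40 (1.86 to 4.75) that was 2.02 without the highest cell on each side. Differences between cluster 6 and the rest in these ratios were not tested.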

How the data were processed

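Hashtagged NK cells were captured on 1 lane of a 10x Chromium, with 15000 cells targeted. Per the labels' protocols the authors built the deposited UMI count matrix with seqc, on mm10 per the submitters' processing notes. No header or label says how cells were filtered, clustered and classified by hashtag. The deposited matrix held 13118 cells, of which 13085 had a hashtag call, 5606 were called Doublet and 33 had no call. Its 16800 gene columns gave 16789 symbols, of which 16278 matched GENCODE M21, and 11 repeated symbols were summed. The summed UMI totals were 1249984 in cluster 6 and 41310695 in the rest.

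Counts were summed over the cells of a set, scaled to CPM and compared as log2 ratios with a pseudocount of 5 CPM at a minimum of 20 CPM (Python 3.11.15, numpy 2.4.6, scipy 1.17.1). Intervals are exact binomial 95% intervals for sums and Clopper-Pearson intervals for shares. UMIs of 1 cell are not independent, and no interval covers the spread between mice. Intervals were tested on simulated data. Named genes were the 15 highest and 15 lowest ratios at 50 CPM or more with the same sign in each population of at least 30 cells on both sides, and the 10 highest and lowest per diet or tissue comparison whose interval left out 0. List members, markers of other cell types and genes next to the threshold were also named. Members and lists were chosen with earlier results of these data known. Alternatives included TMM factors (edgeR 4.0.16), other pseudocounts and minimum levels, thinned cells and cells or populations left out. No source says whether counting used strand, so overlapping genes are uncertain.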

Additional observations from a re-analysis of the deposited data

Results flagged for a closer look

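Several summed lists differed between diets or tissues in one direction in cluster 6 and in the other direction in the rest, with each counting interval on its own side of 0. None of these differences was tested, since each population is 1 sample, and no explanation is weighed. All values are log2 ratios of summed CPM + 5.

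In refed over fasted spleen cells, cytokines and chemokines differed by 0.12 in cluster 6 and -0.44 in the rest, Ly49 and NKG2 receptors by 0.16 and -0.14, and monocyte and macrophage markers by -0.89 and 0.10. In refed over ad libitum spleen cells, the values were 0.10 and -0.28 for cytokines and chemokines, 0.14 and -0.07 for Ly49 and NKG2 receptors, and 0.069 and -0.10 for NK identity genes. NK identity genes also differed by 0.080 and -0.072 in fasted over ad libitum spleen cells.

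In refed over ad libitum bone marrow cells, NK identity genes differed by 0.17 in cluster 6 and -0.05 in the rest, and proximal signalling adaptors by 0.19 and -0.04. Immediate early genes differed by -0.32 and 0.12. Monocyte and macrophage markers differed by 0.33 and -1.17, and neutrophil markers summed to 2890 CPM in the ad libitum bone marrow of the rest. In bone marrow over spleen cells of ad libitum mice, immediate early genes differed by 0.14 in cluster 6 and -0.72 in the rest, immature NK genes by -0.13 and 0.22, T cell markers by -0.40 and 0.33, and dendritic cell markers by -0.44 and 0.29.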

How the results depend on the processing

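No paired analysis was possible because the labels carry no replicate numbers and each diet and tissue group is 1 population. Cluster 6 and the rest were set side by side within populations, without a test, since the clusters were drawn from the same expression values. With cells of at least 1000 UMIs, the shares of populations and the Doublet share moved by less than their intervals. Leaving out each population gave 1896 to 2072 genes higher and 750 to 857 lower. The counts moved with TMM factors (777 higher, 1824 lower), with no minimum level (3051 higher), with a minimum of 50 CPM (1050 higher), without cells that held markers of other types (1470 lower) and against cluster 9 (1017 higher, 1305 lower). With TMM factors the NK identity median was -0.10, and with every barcode the mature NK median was 0.020. Against cluster 9 the medians that changed side were 0.50 (ribosomal protein), 0.32 (oxidative phosphorylation), 0.25 (actin), 0.33 (S100), -0.35 (NK identity), -0.080 (immature NK), -0.34 (Ly49 and NKG2), -0.19 (adhesion), -0.37 (chromatin), -0.31 (nuclear RNA) and -0.28 (splicing), and the genes were Tmsb4x 0.12, S100a13 0.35, Atp5e 0.50, Tmsb10 0.20, Sec61b 0.24, Atox1 0.19 and Pin4 0.031.

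For spleen fasted over ad libitum, dividing genes were at -1.05 thinned to 1000 UMIs and -1.01 by the mean over cells, and glucocorticoid targets at 0.74 and 0.99 thinned to 1500 and 1000 UMIs. For refed over fasted spleen the values were 0.39 (dividing, mean over cells) and -0.98 (glucocorticoid, 1000 UMIs). Bone marrow refed over ad libitum gave -0.28 for dividing genes at 1000 UMIs. Bone marrow over spleen in ad libitum mice gave -0.82 for mature genes at 1000 UMIs and 0.83 for dividing genes without each gene's highest cell, and in refed mice -0.60 for mature genes by the mean over cells.

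Leaving out cells with 3 or more UMIs of other cell types' markers kept 77 of 412 cells, 16, 20 and 18 of them from fasted, refed and ad libitum spleen and 1 and 7 from refed and ad libitum bone marrow. The dividing ratios were then -0.55 (spleen fasted over ad libitum), -0.55 (refed over fasted), -1.10 (refed over ad libitum), 2.50 (bone marrow refed over ad libitum), -1.16 (bone marrow over spleen, ad libitum) and 2.44 (refed), the glucocorticoid ratios -1.50, -1.26 and 0.71 (spleen refed over fasted, spleen refed over ad libitum, bone marrow refed over ad libitum), and the mature ratios -1.34 and -1.52 (bone marrow over spleen, ad libitum and refed). The alternative of every barcode was not run for diets, since a Doublet call names no population. The limit of 3 UMIs was not scaled to depth, so this setting also depends on depth. The causes were not tested. Depth limits genes with few UMIs, since 107 cells were below 1500 UMIs.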

Other observations

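Genes of type 1 innate lymphoid cells and tissue residency were higher in cluster 6 in 6 of 7 tested cases and lower in 0, with a median log2 ratio of 1.00. Ikzf2 (Helios, a transcription factor) had 92.8 CPM in cluster 6 and 28.9 CPM in the rest and was higher in each of the 5 populations. Itga1 (CD49a) and Cxcr6, receptors of resident cells, had 7.20 and 2.40 CPM in cluster 6 and were under the minimum level. Within refed spleen the median of the list was -0.71. Gzmk (granzyme K) was at 45.6 CPM in cluster 6 and 11.2 CPM in the rest, and Gzmc (granzyme C) at 517 and 2088 CPM. Within the 5 populations, which leave out tumour, Gzmc was higher in cluster 6 in 3 and lower in 2.

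Immediate early genes, which enzymatic digestion and stress can induce, had 1 of 17 higher and 1 lower over the pooled cells. These were Fosb, at 370 CPM in cluster 6 and 158 CPM in the rest, and Atf3, at 10.4 and 26.6 CPM. The median of the list was 0.48 within refed and 1.00 within ad libitum bone marrow, where all tested genes had 0.18 and 0.26. Within spleen it lay between 0.006 and 0.12. Targets of p53 and apoptosis genes had 1 of 10 higher and 2 lower. Bcl2, which protects cells from death, was at 557 and 356 CPM, and Cdkn1a, a brake on the cell cycle, at 11.2 and 39.7 CPM. Glycolysis genes had 2 of 14 higher, Hk2 and Slc2a1, and 2 lower, Aldoa and Gapdh.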
